A study of Mus musculus with 8 samples.

Results

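Early gene-body peaks are R-loop peaks of protein-coding genes whose centre lies 1 to 5 kb downstream of the transcription start site (TSS). They were taken from a table of R-loop peaks by position. A peak belonged to them when it lay on an autosome, had a mean score over 30 across the 6 libraries, had its centre inside a protein-coding gene of under 300 kb over 1000 and up to 5000 bp from the TSS, and lay more than 3 kb from the 3′ end of the gene. The rule found 1553 peaks in 1530 genes, among 25815 autosomal peaks that passed the same score minimum and 28265 peaks in all. Another 74 autosomal peaks met the position rule but had a mean score of 30 or less, and they were left out.

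The peaks came from DNA-RNA immunoprecipitation sequencing (DRIP-seq) of mouse muscle stem cells (MuSCs, also called satellite cells), in which the S9.6 antibody pulls down RNA:DNA hybrids. Ctrl cells had the genotype Pax7CreERT/Suv4-20h1WT and Kmt5b sKO cells the genotype Pax7CreERT/Suv4-20h1KO. Suv4-20h1 is an older name of Kmt5b, the gene of a histone methyltransferase that places the second methyl group on lysine 20 of histone H4. Both groups carried the Pax7CreERT allele, a Cre recombinase that is expressed from the Pax7 gene of satellite cells and is switched on by tamoxifen, so that in the Kmt5b sKO animals only cells of this lineage lose Kmt5b. The cells were purified from limb and trunk muscle with magnetic beads and cultured, and the labels give neither age nor sex. The 6 S9.6 libraries, 3 from each genotype, are the samples compared, which the study calls biological replicates, and the other 2 samples are inputs without values in the table.

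An R-loop forms when a transcript pairs again with its template DNA strand and leaves the coding strand single. R-loops are known to be frequent just downstream of promoters, where the coding strand is often richer in G than in C, because a G-rich RNA binds its template tightly and a G-rich coding strand can fold on itself. RNase H enzymes cut the RNA of the hybrid, and helicases and topoisomerases also limit these structures. R-loops that persist can obstruct DNA replication.

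The sequences under the peaks differed widely in base composition. The 200 bases at the peak centre follow for the 3 members with the largest gains in Kmt5b sKO MuSCs, on the coding strand, from the GRCm38 reference. Runs of 3 or more G or 3 or more C are in capitals. They lie at chr9:22190401-22190600 (Zfp872), chr14:3034901-3035100 (Gm2888) and chr14:5975801-5976000 (Gm3453).

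Zfp872: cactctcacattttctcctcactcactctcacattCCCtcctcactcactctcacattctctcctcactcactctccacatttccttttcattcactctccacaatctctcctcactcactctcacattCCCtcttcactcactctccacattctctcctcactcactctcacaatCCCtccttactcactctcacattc
Gm2888: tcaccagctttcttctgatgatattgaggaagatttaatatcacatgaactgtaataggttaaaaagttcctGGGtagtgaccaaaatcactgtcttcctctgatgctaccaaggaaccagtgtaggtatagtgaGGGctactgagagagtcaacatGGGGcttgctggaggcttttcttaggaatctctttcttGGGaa
Gm3453: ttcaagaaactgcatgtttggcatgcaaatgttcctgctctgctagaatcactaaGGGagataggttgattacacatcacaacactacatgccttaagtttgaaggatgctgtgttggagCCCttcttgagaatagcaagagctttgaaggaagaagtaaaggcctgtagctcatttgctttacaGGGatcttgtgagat

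The Zfp872 window was highly repetitive, with 0 runs of G and 3 runs of C, so the coding strand there was C-rich. Gm2888 held 4 runs of G and Gm3453 held 2. The 3 members with the largest losses are shown in the same way, at chr19:12497101-12497300 (Dtx4), chr2:77167001-77167200 (Ccdc141) and chr15:51987801-51988000 (Rad21).

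Dtx4: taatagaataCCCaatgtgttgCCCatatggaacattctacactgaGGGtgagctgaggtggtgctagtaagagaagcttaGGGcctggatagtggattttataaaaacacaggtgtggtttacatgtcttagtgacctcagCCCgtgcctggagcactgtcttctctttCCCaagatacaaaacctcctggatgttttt
Ccdc141: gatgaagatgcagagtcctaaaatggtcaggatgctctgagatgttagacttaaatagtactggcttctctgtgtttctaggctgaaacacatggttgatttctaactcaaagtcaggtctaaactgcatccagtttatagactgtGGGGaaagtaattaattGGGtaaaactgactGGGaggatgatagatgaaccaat
Rad21: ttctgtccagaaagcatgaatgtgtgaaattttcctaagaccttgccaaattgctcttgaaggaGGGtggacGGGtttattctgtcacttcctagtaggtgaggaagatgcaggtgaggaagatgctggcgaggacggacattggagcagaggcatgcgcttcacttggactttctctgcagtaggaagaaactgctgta

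Runs of G were present in all 3 of these windows, with 2 in Dtx4, 3 in Ccdc141 and 2 in Rad21. The next windows belong to 3 of the members with the most signal per kb, at chr9:3026501-3026700 (Gm10717), chr2:75662301-75662500 (Hnrnpa3) and chr17:29344501-29344700 (Mtch1).

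Gm10717: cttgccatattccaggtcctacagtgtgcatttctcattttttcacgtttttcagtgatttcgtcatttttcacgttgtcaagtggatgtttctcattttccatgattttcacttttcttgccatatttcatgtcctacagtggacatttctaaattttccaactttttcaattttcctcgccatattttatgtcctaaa
Hnrnpa3: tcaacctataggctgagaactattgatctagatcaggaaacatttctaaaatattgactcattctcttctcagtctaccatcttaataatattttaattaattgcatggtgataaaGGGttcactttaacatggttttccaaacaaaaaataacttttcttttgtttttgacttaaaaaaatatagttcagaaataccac
Mtch1: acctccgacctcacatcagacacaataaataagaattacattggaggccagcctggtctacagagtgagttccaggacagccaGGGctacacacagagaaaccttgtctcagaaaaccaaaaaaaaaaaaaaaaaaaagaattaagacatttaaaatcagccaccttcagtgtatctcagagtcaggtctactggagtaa

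The Gm10717 window held no run of either base, and the Hnrnpa3 and Mtch1 windows held 1 run of G each. The windows of Map2k2 (chr10:81106901-81107100) and Tead3 (chr17:28348101-28348300) are shown as examples of an excess of G over C on the coding strand, chosen after the values were seen.

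Map2k2: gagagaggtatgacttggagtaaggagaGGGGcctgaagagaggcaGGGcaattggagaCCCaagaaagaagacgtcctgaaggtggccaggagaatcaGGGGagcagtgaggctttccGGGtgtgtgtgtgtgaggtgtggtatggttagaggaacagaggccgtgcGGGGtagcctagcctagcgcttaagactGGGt
Tead3: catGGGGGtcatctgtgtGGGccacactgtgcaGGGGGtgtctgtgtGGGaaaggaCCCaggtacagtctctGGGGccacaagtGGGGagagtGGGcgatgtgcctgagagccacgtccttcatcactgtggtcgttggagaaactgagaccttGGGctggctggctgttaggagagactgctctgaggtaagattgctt

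Map2k2 held 6 runs of G against 1 of C, and Tead3 held 8 against 1. These windows show what a G-rich coding strand looks like. Among the gains, Gm2888 shared the surplus of G runs and Zfp872 had the reverse.

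To place the members in their genes, each was set against the GENCODE vM21 annotation, which held all 1530 genes. The median member was 2400 bp long, with an interquartile range of 1600 to 3800 bp. Its upstream edge lay 1359 bp and its downstream edge 4452 bp from the TSS (medians). Only 95 members reached back over the TSS itself, so 1458 lay wholly downstream of it. The centre was in intron 1 of the principal transcript in 872 members, in intron 2 in 279, in a later intron in 239 and in an exon in 90. The remaining 73 centres lay outside the principal transcript. A shorter isoform can start further down, and 152 members lay within 1 kb of another annotated TSS of the same gene. The DNA strand of a hybrid is not recorded in these data, and 56 centres also lay inside a gene on the other strand, whose signal cannot be told apart from that of the member's gene.

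Most genes had a single early peak. Of the 1530 genes, 1507 had 1 member and 23 had 2. A tested peak further than 5 kb from the TSS was present in 969 of the genes, and 550 genes had no other tested peak. Counted over members, the median gene length was 21.7 kb, and the rule itself left out genes of 300 kb or more.

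The libraries differed in scale, partly along genotype. With the scores of all peaks added up, Ctrl replicates 1 and 3 reached 3909655 and 3893768. Both lay below every Kmt5b sKO library (4699599, 4930261 and 4781207). Ctrl replicate 2 (4729631) stood above the other Ctrl libraries and within the Kmt5b sKO range. The score is spike-in scaled, it is not a read count, and it was summed over the peak by the authors, so it grows with peak length. Of 8 satellite cell and myoblast marker genes, 5 carried autosomal peaks (Pax7, Myod1, Des, Itga7 and Megf10) and 0 carried a member. The marker lists of endothelial, fibro-adipogenic and immune cells held 0 members, and the list of mature myofibre genes held 1 (Atp2a1). Over all their tested peaks, the summed score of the endothelial markers was 240 to 256 in Ctrl and 399 to 494 in Kmt5b sKO (3 of 12 genes with a peak), and that of the fibro-adipogenic markers 185 to 317 and 353 to 391 (1 of 12 genes). The satellite cell markers overlapped, at 9370 to 11032 and 10776 to 11600, and so did the myofibre markers, at 3871 to 6045 and 5179 to 5354. The 12 immune markers had 0 tested peaks, and the part of other cells in the results was not tested. R-loop signal is not a measure of RNA level, so these counts describe the peaks and not the purity of the cells. The single peak of Kmt5b itself, which is not an early peak, scored 412, 658 and 420 in Ctrl and 440, 449 and 484 in Kmt5b sKO MuSCs, and DRIP-seq signal there does not measure the deletion.

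To determine whether early gene-body R-loops differ without Kmt5b, the median score over the members was compared between genotypes. It was 62, 70 and 62 in the Ctrl libraries and 90, 94 and 92 in the Kmt5b sKO libraries. The means were 64.7 ± 4.62 and 92 ± 2 (SD, n = 3 per genotype). All 3 Kmt5b sKO libraries lay above all 3 Ctrl libraries, a ratio of 1.42 (exact permutation test, two-sided, p = 0.1, the smallest that 3 against 3 libraries can give, and 0.1 after Benjamini-Hochberg adjustment over the 4 library-level comparisons). Over all tested peaks the median score averaged 63.7 in Ctrl and 87.7 in Kmt5b sKO, a ratio of 1.38 (exact p = 0.1). The members' ratio was thus close to that of the peaks as a whole. With every library scaled to the same total the members' ratio was 1.23 (exact p = 0.1).

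Peak by peak, 86.9% of the members had a positive log2 fold change on the deposited scale, against 78.7% of all tested peaks. Calls required both a limma adjusted p below 0.1 and more than 1.5-fold difference, with p-values adjusted over all 25815 tested peaks. Of the 1553 members, 570 (36.7%) were called higher and 5 (0.322%) lower in Kmt5b sKO MuSCs. Among all tested peaks 32.9% were called higher and 0.883% lower, so the members' share of gains was close to that of the peaks as a whole. The libraries of the genotypes did not overlap in 788 members with Kmt5b sKO above (50.7%, against 41.5% of all tested peaks) and in 25 members with Kmt5b sKO below (against 3.81% of all tested peaks). The median log2 fold change was 0.47 over the members and 0.35 over all tested peaks. The score minimum bears on these counts, since 145 members had a Ctrl mean of 30 or less and entered only through the knockout libraries, and 104 of them were called higher. Of the other 1408 members, 466 were called higher. The Kmt5b sKO mean was 30 or less in 7 members, of which 0 were called lower.

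The balance of gains and losses varied with the scaling of the libraries. After each library was centred on its median peak, 129 members were called higher and 114 lower, with 10.3% and 11.9% of all tested peaks called in these directions. All 129 were among the 570 gains on the deposited scale, and the 5 losses were among the 114. Centring moved the median log2 fold change of all tested peaks to -0.11 and that of the members to 0.01. With the same total per library, 321 members (20.7%) were called higher and 28 (1.80%) lower, against 21.6% and 3.12% of all tested peaks. After quantile normalization 130 members (8.37%) were called higher and 79 (5.09%) lower, against 8.02% and 7.70% of all tested peaks. Which scale holds for these cells was not tested.

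**Figure D1:**
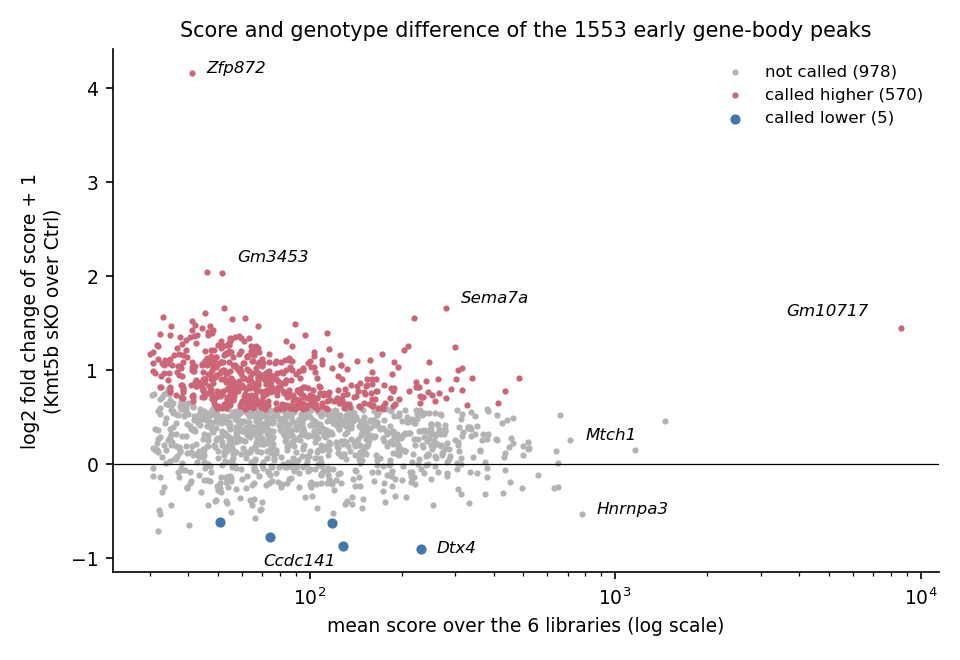
Each point is 1 of the 1553 early gene-body peaks, with its mean score over the 6 libraries on the x axis (log scale) and its limma log2 fold change of score + 1, Kmt5b sKO over Ctrl, on the y axis; 570 peaks called higher are red, 5 called lower are blue and the others grey. Most points lie above 0, Zfp872 stands apart at 4.16 and Gm10717 has by far the highest score.

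Because gene-body R-loops further down could have shifted by the same amount, the members were compared with the 18517 other coding gene-body peaks in each library. The log2 ratio of the median member score to the median score of those peaks was -0.20, -0.30 and -0.24 in Ctrl and -0.06, -0.06 and -0.05 in Kmt5b sKO. On the summed score the members thus lay below the other gene-body peaks in every library. The gap was narrower in all 3 Kmt5b sKO libraries, by 0.19 on the log2 scale (exact permutation test, two-sided, p = 0.1, the smallest possible). With the other peaks weighted to the members' peak lengths, the ratios were 0.05, -0.02 and 0.02 in Ctrl and 0.17, 0.16 and 0.18 in Kmt5b sKO. The members then lay near the other peaks in Ctrl and above them in the knockout, a difference of 0.16 (exact p = 0.1). Of the other coding gene-body peaks 21.8% were called higher, against 36.7% of the members.

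Peaks at the TSS showed the opposite relation. Over the 214 coding peaks within 1 kb of a TSS the median score averaged 46.5 ± 2.65 in the 3 Ctrl libraries and 75.8 ± 1.26 in the 3 knockout libraries (SD), and 49.1% were called higher. The log2 ratio of member to TSS peaks was 0.48, 0.50 and 0.45 in Ctrl and 0.27, 0.31 and 0.26 in Kmt5b sKO, lower by 0.20 in the knockout (exact permutation test, two-sided, p = 0.1, the smallest possible). Restricted to peaks with a mean score over 100, this difference was -0.09 and the genotypes overlapped (exact permutation test, p = 0.3). The TSS peaks were shorter, with a median of 1600 bp against 2400 bp. Weighted to the members' peak lengths, the log2 ratios were -0.02, 0.02 and 0.02 in Ctrl and -0.12, -0.06 and -0.16 in Kmt5b sKO. The members then lay near the TSS peaks in Ctrl and below them in the knockout, a difference of -0.12 (exact p = 0.1).

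**Figure D2:**
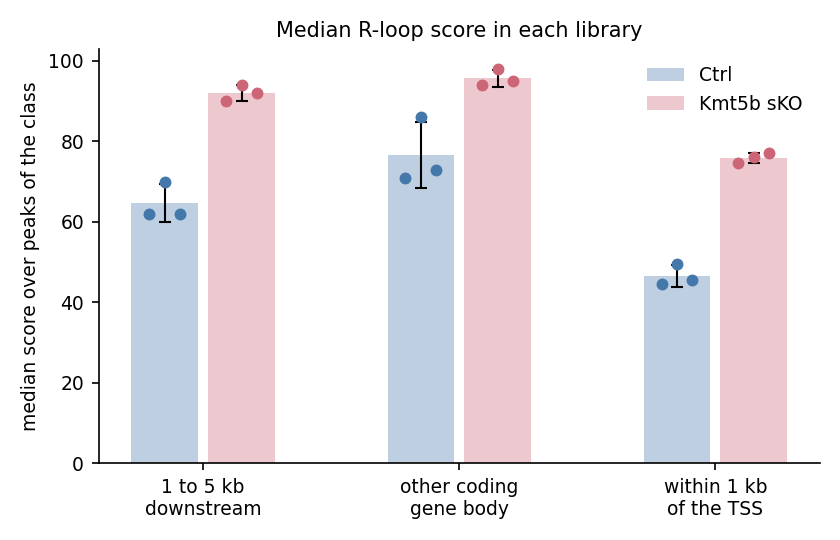
Points are the median score over the peaks of a class in each library (y axis, spike-in scaled score from 0), bars the mean of the 3 libraries of a genotype and error bars the SD. In the early class the Ctrl points lie between 62 and 70 and the Kmt5b sKO points between 90 and 94.

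The same relation was examined inside single genes, so that the transcription unit was shared. In 969 genes the early peak was set against the tested peaks of the same gene beyond 5 kb. The median over genes of the log2 ratio of early to later score was -0.86, -0.93 and -0.82 in Ctrl and -0.60, -0.64 and -0.59 in Kmt5b sKO. Early peaks were the weaker in every library, and the ratio was higher by 0.26 in the knockout (exact permutation test, two-sided, p = 0.1, the smallest possible). Part of this gap was peak length. On the score per kb the ratio was -0.05, -0.12 and -0.06 in Ctrl and 0.07, 0.07 and 0.11 in Kmt5b sKO, a difference of 0.16 (exact p = 0.1). Per kb, early peaks therefore lay slightly below the later peaks of their genes in the 3 Ctrl libraries and slightly above them in the 3 Kmt5b sKO libraries.

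The members also held a larger part of the whole autosomal signal in the knockout, with 3.81, 3.74 and 3.84% of the autosomal score in Ctrl and 4.44, 4.47 and 4.49% in Kmt5b sKO, with no overlap between genotypes (exact permutation test, two-sided, p = 0.1). One peak, that of Gm10717, carried part of this. Without it the shares were 3.71, 3.62 and 3.72% against 4.15, 4.20 and 4.25%, still without overlap.

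Short early peaks were called higher more often than long ones. All tested peaks were cut into 5 length classes, and the share of members called higher was 59.1% up to 1000 bp, 49.7% from 1200 to 1800 bp, 38.05% from 2000 to 2800 bp, 25.4% from 3000 to 5600 bp and 10.1% from 5800 bp. The other coding gene-body peaks followed the same order with 60.1, 40.6, 21.4, 10.8 and 3.84%. In the shortest class members and other gene-body peaks had nearly equal shares, and in the 4 longer classes the members had the higher share. Among all tested peaks the shares were 69.7, 53.7, 30.02, 13.8 and 4.43%. The members thus lay below all tested peaks up to 1800 bp and above them from 2000 bp. Intergenic peaks lay above the members in every class, with 80.4, 82.7, 73.9, 40.2 and 28.2%. The score is summed over the peak, so length and level cannot be told apart here.

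**Figure D3:**
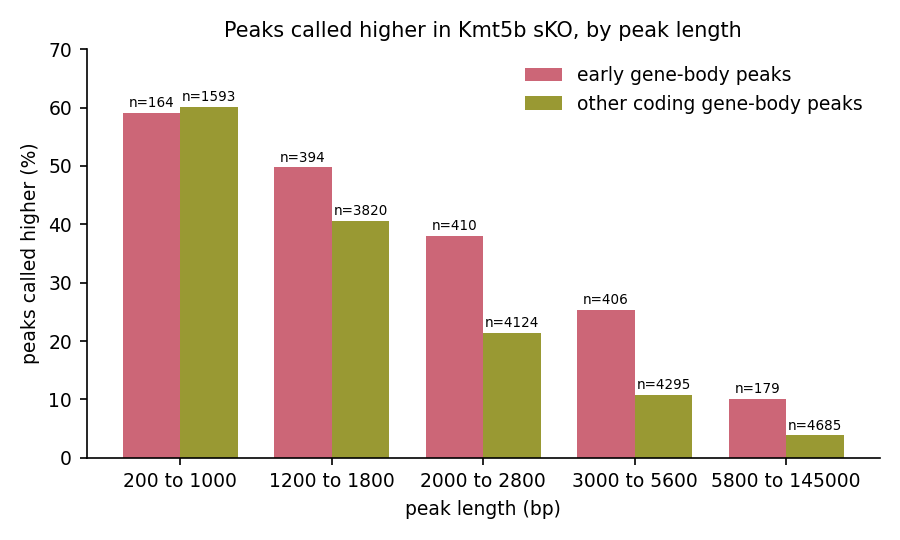
Bars give the percentage of peaks called higher in Kmt5b sKO (limma, y axis from 0) for early gene-body peaks (red) and other coding gene-body peaks (olive) in 5 classes of peak length in bp, with the number of peaks above each bar. The red bars fall from 59.1% in the shortest class to 10.1% in the longest, and exceed the olive bars in the 4 longer classes.

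The calls thinned out with distance from the TSS. The 337 members at 1 to 2 kb had a median log2 fold change of 0.55 and 44.8% were called higher. At 2 to 3 kb these values were 0.49 and 36.2% (420 members), at 3 to 4 kb 0.46 and 36.6% (404 members), and at 4 to 5 kb 0.38 and 30.4% (392 members). The order went on beyond the members, with 29.1% called higher at 5 to 10 kb and 20.7% at 20 to 50 kb. Members at 1 to 2 kb were also the shortest, with a median of 2000 bp against 2600 bp in each of the other classes.

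Scores by distance were also read in single libraries. The median score at 1 to 2 kb was 53, 59 and 52 in Ctrl and 79, 81 and 80 in Kmt5b sKO. At 4 to 5 kb it was 68, 79 and 69 in Ctrl and 95, 99 and 102.5 in Kmt5b sKO. The nearest members had the lower scores in every library, and the log2 ratio of the nearest to the farthest class was higher by 0.09 in the knockout (exact permutation test, two-sided, p = 0.1, the smallest possible). These scores grow with peak length. Per kb, over the 6 libraries, the median was 36.0 at 1 to 2 kb and 35.5 at 4 to 5 kb.

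The share called higher also varied with position within the gene. Of members centred in intron 1, 39.8% were called higher, against 34.4% in intron 2, 27.6% in later introns and 22.2% in exons, and the highest share was 56.2% among the 73 members centred outside the principal transcript. The 95 peaks that cover the TSS had a share of 21.1% and a median length of 6000 bp, and the 1458 members wholly downstream had 37.7% and 2200 bp. Members more than 1 kb from every annotated TSS had 36.7%, and the part of alternative start sites was not tested. By gene length, the share was 31.4% in the shortest member genes (up to 11.7 kb) and 36.2% in the longest (from 46.2 kb), with 39.2 and 39.9% between them.

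The coding strand under the members was richer in G than in C. GC skew, the difference of G and C divided by their sum over 1 kb around the peak centre, had a median of 0.083 in the members and was above 0 in 1177 of them (75.8%). The median was 0.050 in the other coding gene-body peaks, of which 67.4% were above 0, and 0.079 in the peaks within 1 kb of a TSS. Skew was highest in the members nearest the TSS, at 0.110 for 1 to 2 kb against 0.080, 0.064 and 0.068 in the next 3 kilobases. Peaks are not independent replicates, and these values are descriptions of sequence.

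CpG content and G runs were read in the same windows. The observed over expected CpG ratio was 0.213 in members, 0.191 in other coding gene-body peaks and 0.538 within 1 kb of a TSS. A G-quadruplex pattern, written as 4 runs of at least 3 G with 1 to 7 bases between runs, was found on the coding strand in 12.4% of members and on the template strand in 6.70%. In all tested peaks these shares were 9.42% and 7.64% (strand of the gene, plus strand where there was none), and in other coding gene-body peaks 8.92% and 7.19%. Coding peaks within 1 kb of a TSS held it more often, in 28.5% on the coding and 19.2% on the template strand. Members within 1 kb of another TSS of their gene held the pattern in 24.3%.

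Measures of G richness differed in opposite directions between members called higher and not called. Skew had a median of 0.076 in the 570 members called higher and 0.085 in the 978 members not called, and the coding-strand pattern was found in 14.7% and 11.0% of them. The gains had more repeat sequence, with a median of 32.2% of soft-masked bases against 20.3% in members not called. They were also shorter, with a median of 1800 bp against 2800 bp.

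**Figure D4:**
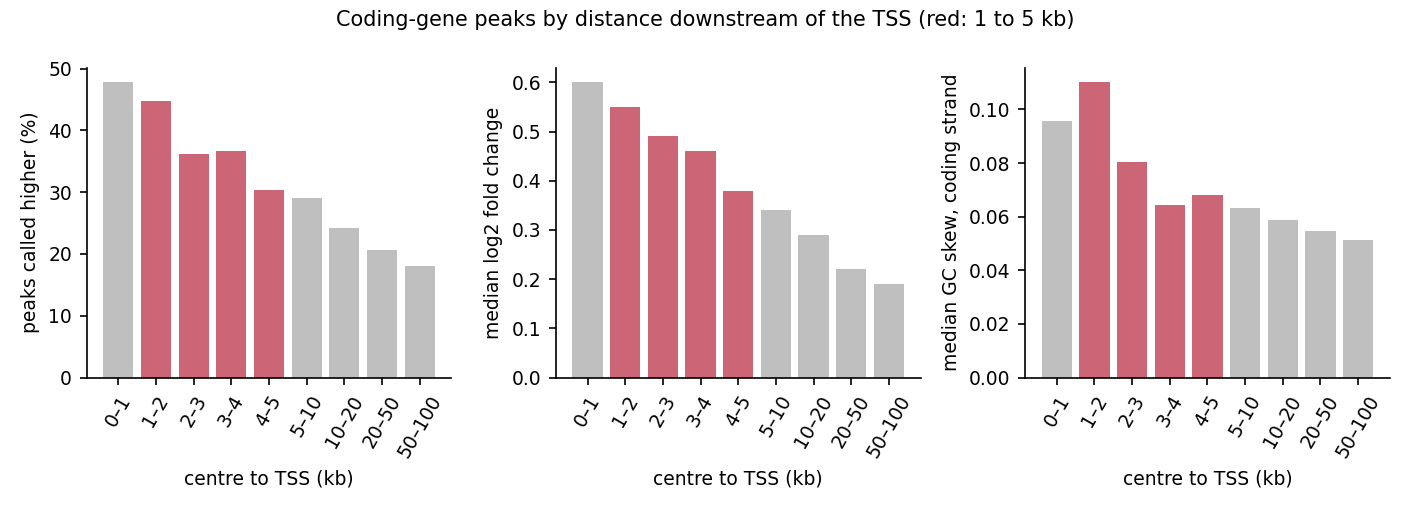
Coding-gene peaks are binned by the distance of their centre downstream of the TSS in kb (x axis), with the percentage called higher in Kmt5b sKO, the median log2 fold change of score + 1, and the median GC skew of the coding strand as bars from 0. The 1 to 5 kb bins are red; the percentage falls from 44.8% at 1 to 2 kb to 30.4% at 4 to 5 kb, and skew is highest at 1 to 2 kb (0.110).

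The largest gains were named by the fold change among called members whose libraries did not overlap. The peak of Zfp872, a zinc finger protein gene, at chr9:22189600-22191399 in intron 1, scored 2, 4 and 4 in Ctrl and 57, 60 and 120 in Kmt5b sKO. It was almost without signal in Ctrl and clear in every knockout library. The log2 fold change was 4.16 with an SE of 0.70 (limma adjusted p = 2.0e-07). Of its bases 78.8% were repeat sequence. Gm2888 at chr14:3034400-3035599 scored 11, 20 and 23 against 69, 70 and 85, and Gm3453 at chr14:5975200-5976599 scored 18, 18 and 23 against 99, 83 and 69. These predicted genes stand in a region of near-identical copies on chromosome 14. The study describes keeping only unique alignments, and how reads were placed among such copies was not tested. The log2 fold changes of Gm2888 and Gm3453 were 2.05 and 2.03 (limma adjusted p = 3.2e-07 and 2.2e-08). Zfp872, Gm2888 and Gm3453 all passed the score minimum only through the knockout libraries, so they had to differ to be members.

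Sema7a, a membrane-anchored semaphorin, had a long peak in intron 1 at chr9:57940800-57947399 that scored 149, 132 and 119 in Ctrl and 419, 476 and 380 in Kmt5b sKO. The lowest knockout library was thus far above the highest control. The log2 fold change was 1.66 with an SE of 0.16 (limma adjusted p = 2.8e-22). Gpx3, a secreted glutathione peroxidase, scored 20, 29 and 25 against 93, 82 and 65 in intron 1 (log2 fold change 1.66, limma adjusted p = 1.4e-06). C1qtnf2, a secreted protein with a C1q domain, scored 14, 25 and 28 against 69, 50 and 88 in intron 1 (log2 fold change 1.6, limma adjusted p = 3.3e-05). Both of these had a Ctrl mean under the score minimum. All 6 of these leading gains were still called higher after centring.

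Losses were few. Dtx4, which encodes a Deltex-family ubiquitin ligase of the Notch pathway, had a peak at chr19:12493000-12501399, centred in intron 1, with scores of 237, 390 and 281 in Ctrl and 142, 212 and 132 in Kmt5b sKO. Its log2 fold change was -0.90, SE 0.16 (limma adjusted p = 1.6e-06), and the genotypes did not overlap. Ccdc141, a coiled-coil protein, scored 139, 202 and 160 against 82, 94 and 95 at chr2:77164400-77169799 (log2 fold change -0.87, limma adjusted p = 7.2e-05). Both losses stood in every knockout library.

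The other losses were weaker. Rad21, a subunit of the cohesin ring, scored 77, 121 and 85 in Ctrl and 50, 70 and 44 in Kmt5b sKO (log2 fold change -0.78, limma adjusted p = 0.0036). Snrpf, an Sm protein of the spliceosomal snRNPs, scored 112, 184 and 137 against 83, 104 and 89 (log2 fold change -0.62, limma adjusted p = 0.0058). Neither loss was called without Ctrl replicate 2, with log2 fold changes of -0.58 and -0.43, and Snrpf was not called without Kmt5b sKO replicate 1 either (-0.55). The fifth call, the gene ENSMUSG00000074899, overlapped between genotypes, with 53, 88 and 43 against 35, 25 and 62 (log2 fold change -0.61, limma adjusted p = 0.075), and was lost without any of Ctrl replicate 1 (-0.69), Ctrl replicate 2 (-0.32), Kmt5b sKO replicate 1 (-0.56) or Kmt5b sKO replicate 2 (-0.32).

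Levels between members were compared per kb. Gm10717, a predicted gene at chr9:3022000-3031199, had 937 score units per kb, and 95.6% of its peak was repeat sequence. It scored 3880, 5595 and 4469 in Ctrl and 13486, 13055 and 11251 in Kmt5b sKO, with no overlap between genotypes. Its log2 fold change was 1.45, SE 0.13 (limma adjusted p = 9.0e-24). Other members of the highest rank were Hnrnpa3 with 130 per kb, Mtch1 with 111, C87414 with 98.3 and Taco1 with 90.2, against a median of 35.6 per kb over all members. Gm10717 therefore stood far outside the range of the rest.

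These strong peaks did not move together. Hnrnpa3, an RNA-binding protein of nuclear transcripts, scored 816, 1159 and 798 in Ctrl and 587, 639 and 666 in Kmt5b sKO, so every knockout library was below every control. Its log2 fold change of -0.53 (limma adjusted p = 7.8e-04) missed the fold minimum, but the peak was called lower without Ctrl replicate 1 (-0.61) or Ctrl replicate 3 (-0.63), and its log2 fold change was -0.36 without Ctrl replicate 2. Mtch1, a mitochondrial carrier homologue, scored 728, 659 and 563 against 731, 898 and 700 (log2 fold change 0.26, limma adjusted p = 0.13), and the genotypes overlapped between 700 and 728. C87414 scored 27, 18 and 21 against 61, 65 and 44 (log2 fold change 1.33, limma adjusted p = 0.0015), with a Ctrl mean under the score minimum. Taco1, a translational activator of a mitochondrial gene, scored 56, 63 and 64 against 123, 118 and 117 (log2 fold change 0.96, limma adjusted p = 9.0e-05).

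The members nearest the limits of the rule are given as a description. Cox18 lay just inside the near limit with a mean score of 183, and Cpeb4 just outside at 989 bp with 113. Gm2888 lay just inside the far limit at 4998 bp with a mean score of 46.3, and Rbx1 just outside at 5004 bp with 88.5. At the score minimum Zfp719 was inside with a mean of 30.2 and Tcam1 outside with 29.8.

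In 23 genes that carried a pair of early peaks, the peaks mostly shared their call. Both peaks were called higher in 6 of the genes (among them Actn4, Ap2s1, Arih1, Babam1 and Bid), 1 of them in 5 genes and none in 12. In Arih1, a ubiquitin ligase, the log2 fold changes were 1.02 at 1318 bp and 0.87 at 4218 bp. In Actn4, a non-muscle alpha-actinin, they were 0.77 at 1140 bp and 1.11 at 4240 bp. In Cdk1 they were -0.40 at 1338 bp and 0.20 at 4238 bp, and neither was called. Such peaks share a gene and are not independent.

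Gene lists were then read for their early peaks, each set beside the median of 0.35 and the 32.9% called higher over all tested peaks. No list held a member called lower on the deposited scale, on which 0.322% of all members were called lower. The list of myogenic regulators and satellite cell genes held 4 members, and all 4 were called higher, with a median log2 fold change of 1.02. Sdc4, a syndecan of the satellite cell surface, scored 99, 68 and 80 in Ctrl and 174, 170 and 168 in Kmt5b sKO (log2 fold change 1.06, limma adjusted p = 1.3e-06). Sdc3, another syndecan, scored 18, 18 and 24 against 44, 84 and 38 (1.35, limma adjusted p = 0.0025), and it met the score minimum only through the knockout libraries. The genotypes did not overlap in these members, nor in Six4 (0.76). After centring Sdc4 and Sdc3 were still called, and the list's median was 0.56.

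Of 8 immediate early and stress members, 4 were called higher (Fosl1, Dnaja1, Srf and Trib1) with a list median of 0.67. Fosl1, a partner of Jun in AP-1, scored 70, 57 and 59 against 118, 180 and 136 (log2 fold change 1.19, limma adjusted p = 3.6e-07), and Dnaja1, a co-chaperone, had 1.08 (limma adjusted p = 1.1e-04). Myc, a growth regulator of the same list, overlapped between genotypes with 36, 44 and 27 against 30, 34 and 55. Fosl1 and Dnaja1 were still called after centring, when the list median was 0.21.

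Of 8 Ras and PI3K signalling members, 3 were called higher (Map2k2, Foxo1 and Akt1), with a list median of 0.53. Map2k2, the kinase that activates ERK, scored 111, 110 and 98 in Ctrl and 188, 177 and 242 in Kmt5b sKO (log2 fold change 0.91, limma adjusted p = 1.1e-05). Foxo1, a forkhead factor restrained by Akt, scored 34, 40 and 33 against 75, 85 and 91 (1.21, limma adjusted p = 6.1e-05). The genotypes were fully apart in both. Foxo1 alone of this list was still called after centring, when the list median was 0.07. Foxo1 and Arid4b, a chromatin regulator with a log2 fold change of 1.02 (limma adjusted p = 7.9e-04), were also the members from a list of cancer genes that the study chose on these libraries, so their direction is not independent evidence.

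Among 9 members of the Hippo, TGF-beta, Wnt and Notch list, 2 were called higher, with a list median of 0.45. They were Tead2 (57, 58 and 70 against 112, 145 and 114) and Tead3 (27, 38 and 55 against 64, 70 and 69), DNA-binding partners of Yap1. Their log2 fold changes were 0.99 (limma adjusted p = 4.8e-05) and 0.80 (limma adjusted p = 0.012), and Tead3 was not called without Ctrl replicate 1 (0.55). After centring the list had a median of -0.01 and 0 calls.

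Histone lysine methylation genes had 12 members in 11 genes. Of these 5 were called higher and 0 lower, and their median was 0.48. Ehmt2, an H3 lysine 9 methyltransferase, scored 52, 32 and 34 in Ctrl and 91, 78 and 89 in Kmt5b sKO (log2 fold change 1.14, limma adjusted p = 9.8e-05). Setd2, the enzyme that trimethylates H3 lysine 36, scored 63, 35 and 44 against 65, 101 and 99 (0.90, limma adjusted p = 0.0013). Ash1l, Setd1a and Nsd3 were the other calls, at 0.79, 0.78 and 0.75. Ehmt2 alone was still called after centring, when the list median was 0.02. Kmt5c, the paralogue of Kmt5b that places the third methyl group on lysine 20, was not called, with 136, 159 and 125 against 214, 146 and 164 (0.31, limma adjusted p = 0.16) and -0.15 after centring, and it is named here after its values were seen.

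Of 16 members in cytoskeletal and contractile genes 5 were called higher and 0 lower, and the median was 0.43. The calls were both peaks of Actn4 and those of Myh9 (non-muscle myosin), Cnn2 (a calponin) and Tagln2 (a transgelin). In Myh9 the scores were 106, 118 and 116 against 204, 197 and 217 (log2 fold change 0.86, limma adjusted p = 2.8e-05). Below 0 stood Tnnt1, a slow-muscle troponin, with 358, 425 and 357 against 291, 245 and 324, and Acta2, smooth muscle actin, with 101, 164 and 107 against 71, 94 and 99. Neither was called on the deposited scale (-0.41 and -0.47), and both were called lower after centring, when the list median was -0.03.

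Cell cycle and replication genes were the list with the lowest median. Of 15 members in 14 genes, 1 was called higher and 0 lower, and the median log2 fold change was -0.08, below the 0.35 of all tested peaks. The list's median peak length was 3600 bp, against 2400 bp over all tested peaks. At 3000 to 5600 bp the median log2 fold change was 0.37 over members and 0.20 over all tested peaks. The part of peak length in the list's median was not tested. The gain was Mdm2, the ubiquitin ligase of p53, with 119, 160 and 139 in Ctrl and 210, 265 and 205 in Kmt5b sKO (0.70, limma adjusted p = 4.1e-04), which was not called without Kmt5b sKO replicate 2 (0.58). Cks2, a subunit of cyclin-dependent kinases, scored 144, 145 and 132 against 93, 108 and 92, with every knockout library below every control (-0.52, limma adjusted p = 0.021), and it was called lower without Kmt5b sKO replicate 2 (-0.59). Ccna2, a cyclin of S phase and mitosis, Plk1, a mitotic kinase, and the replicative helicase subunits Mcm3, Mcm4 and Mcm5 had log2 fold changes of -0.37, -0.17, -0.43, -0.25 and -0.30, all without a call.

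After centring the cell cycle list had 6 calls lower (Cks2, Ccna2, Mcm3, Mcm5, Plk1 and a Cdk1 peak) and 0 higher, with a median of -0.54 beside -0.11 for all tested peaks. With the same total per library 3 were lower (Cks2, Mcm3 and a Cdk1 peak) and 0 higher. Of all tested peaks 11.9% were called lower after centring and 3.12% with the same total. The list's median was below that of all tested peaks under each of these scalings.

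Splicing genes had a lower median than all tested peaks. Of 22 splicing and RNA-binding members 5 were called higher, with a median of 0.19, which was -0.02 with the same total per library and -0.27 after centring. Among the calls Rbm25 and Rbfox2 had Ctrl means under the score minimum (19.3 and 27.7). The calls included Clk1, a kinase of splicing factors (108, 134 and 140 against 190, 199 and 199, log2 fold change 0.63, limma adjusted p = 0.0022), which was not called without Ctrl replicate 1 (0.51). Srsf1, a splicing factor, scored 252, 348 and 273 against 225, 187 and 231 (-0.43, limma adjusted p = 0.021) and was called lower after centring, as was Hnrnpa3.

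Of 16 translation factor members 6 were called higher, with a median of 0.49. Among the calls Eif3h had a Ctrl mean under the score minimum (23.3). Eef1a1 alone was still called after centring, when the list median was 0.04. Eef1a1, the elongation factor that delivers aminoacyl-tRNA, scored 71, 67 and 52 in Ctrl and 134, 158 and 118 in Kmt5b sKO (log2 fold change 1.10, limma adjusted p = 3.5e-06), and Eif3l, an initiation factor subunit, had 0.98 (limma adjusted p = 1.4e-04). Of 5 ribosomal protein members 1 was called, Rpl3, with 59, 41 and 45 against 77, 105 and 104 (0.97, limma adjusted p = 3.5e-04). Rpl11 scored 331, 385 and 288 against 353, 420 and 420 (0.25, limma adjusted p = 0.17) and -0.20 after centring. The ribosomal list then had 0 calls. These ribosomal and translation genes may have processed copies elsewhere in the genome, and how reads were placed among such copies was not tested.

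The 6 members in DNA damage response and R-loop removal genes had a median of 0.51, with 1 call higher. That call, Rnf8, a ubiquitin ligase at DNA breaks, scored 21, 31 and 29 against 65, 30 and 91, so 1 knockout library lay within the control range, and it was lost without Kmt5b sKO replicate 3 (0.71, limma adjusted p = 0.16). Rnf8 had a Ctrl mean of 27 and met the score minimum only through the knockout libraries. Rnaseh2a, the catalytic subunit of RNase H2, which cuts the RNA of hybrids, scored 123, 137 and 110 against 186, 150 and 172. Its log2 fold change of 0.45 (limma adjusted p = 0.034) missed the fold minimum. The list had 0 calls after centring, and its median was then 0.05.

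Of 24 Zfp zinc finger members 6 were called higher, with a median of 0.48, and all 24 had a positive log2 fold change on the deposited scale. Among the calls Zfp872, Zfp719 and Zfp936 had Ctrl means under the score minimum (3.33, 17.7 and 29.3). Zfp119a, whose peak was 99.8% repeat sequence, scored 41, 30 and 39 against 90, 64 and 76 (1.04, limma adjusted p = 7.4e-04). After centring the median was 0.02 and Zfp872 alone was called. Extracellular matrix genes had 3 members with a median of 0.14. Lama5, a laminin chain, was called (80, 70 and 66 against 88, 112 and 144, log2 fold change 0.64, limma adjusted p = 0.0086), but not without Ctrl replicate 3 (0.58) or Kmt5b sKO replicate 3 (0.46). Fbn1, a fibrillin, scored 68, 81 and 73 against 46, 62 and 65 (-0.37, limma adjusted p = 0.22). Centring gave the matrix list a median of -0.32, with Fbn1 called lower and Lama5 not called. Atp2a1, the calcium pump of fast fibres, scored 140, 210 and 178 against 167, 160 and 190 (-0.01, limma adjusted p = 0.96).

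**Figure D5:**
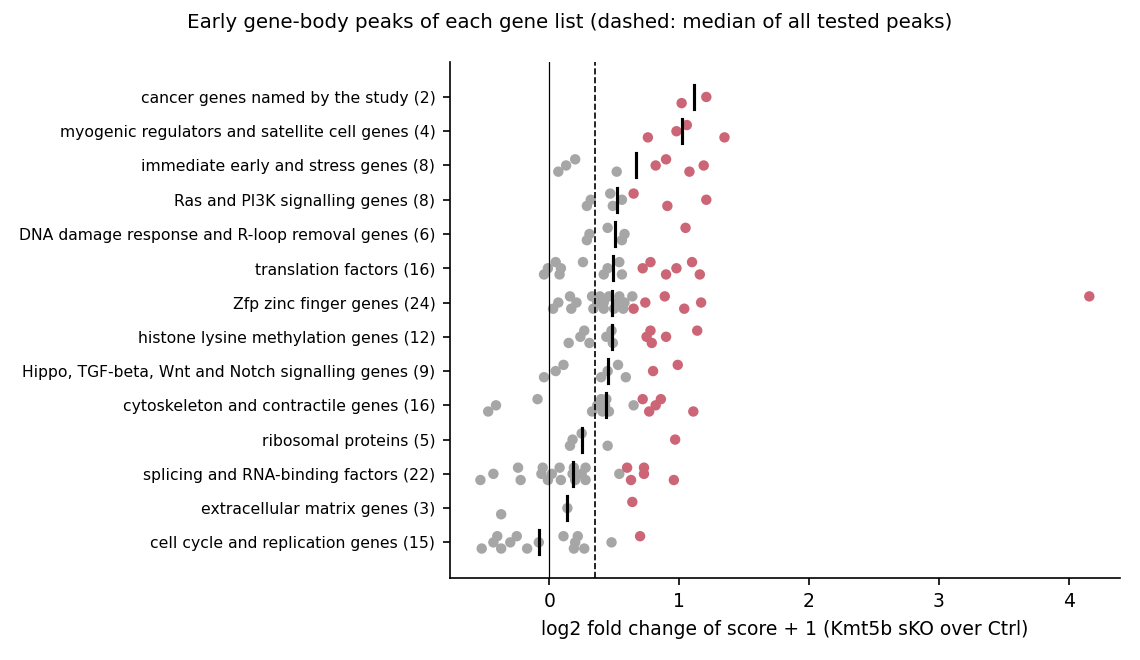
Each point is an early gene-body peak of a gene in the named list (number of peaks in parentheses), with its log2 fold change of score + 1, Kmt5b sKO over Ctrl, on the x axis; red points were called higher, grey points were not called, and the short black bar is the list's median. The dashed line marks the median of all tested peaks (0.35), which the medians of cell cycle, extracellular matrix, splicing and ribosomal protein lists do not reach.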

How the data were processed

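DRIP-seq with the S9.6 antibody was analysed in 3 Ctrl and 3 Kmt5b sKO MuSC libraries, grouped by the genotype in the labels. The submitters' processing notes name Trimmomatic 0.39, STAR 2.7.3a and Picard 2.21.7, and the genome builds mm10 (GRCm38) and, for the Drosophila spike-in, BDGP6. The study describes keeping only unique alignments for its CUT&RUN reads and processing the DRIP-seq reads similarly. Peaks were called against input with Epic2, blacklisted regions were removed and peaks were unified across samples. The deposited score of a peak is its summed signal, scaled by the authors to the spike-in reads and rounded. It is a score and not a read count, so limma replaced a count model. The reads behind a score are not given, so no counting interval or floor is printed.

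Scores were read from 1 table, in which 0 columns belonged to other samples. Autosomal peaks with a mean score over 30 were tested with limma 3.58.1 in R 4.3.3 (eBayes with trend) on log2(score + 1), two-sided, with Benjamini-Hochberg adjustment over all tested peaks. Fold changes are on that scale and understate those of low peaks. The fit was tested on simulated data. eBayes put all weight on the trend, so peaks of equal score shared a variance. Library-level values were compared with exact permutation tests. Exact p-values measure the spread between these libraries. The limma p-values use the variance trend over all tested peaks and not the spread of the single peak.

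Peaks are printed with the start and stop of the table, windows of 200 bases with positions counted from 1. Introns, exons and other start sites came from the GENCODE vM21 annotation (GRCm38) and sequence from the GRCm38 RefSeq assembly (Python 3.11.15, pysam 0.24.0). Members named were the 6 largest gains and all losses whose genotypes did not overlap, the 6 members with the most score per kb, the 2 members of each gene list with the smallest adjusted p, and those at the limits of the rule. Other members given as examples were chosen after their values were seen, as was the fifth loss. The members and lists were chosen with earlier results of these data known. The alternatives covered pseudocount, level filter, scaling, variance model, replicate block, thresholds, member rule and each library left out. Leaving out Gm10717 and peaks under 2000 bp was chosen after seeing the data. X and Y were not part of the main test. A few members that this rule names are not reported here.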

Additional observations from a re-analysis of the deposited data

Results flagged for a closer look

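The X chromosome was outside the tested peaks. On it, 19 peaks met the remaining conditions for an early gene-body peak. Their mean score was 70.1, 98.7 and 71.4 in Ctrl and 104, 105 and 109 in the knockout, 1.324 times as high on average (exact permutation test, two-sided, p = 0.1, the smallest that 3 against 3 libraries can give). As a median over these 19 peaks the score was 65, 75 and 54 against 83, 74 and 86, and the genotypes overlapped (exact p = 0.2). Their mean is drawn to attention because these peaks are in no comparison of the report and lie above the control level.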

How the results depend on the processing

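On the deposited scale 570 members were called higher and 5 lower. The counts were 321 and 28 with the same total per library, 129 and 114 after centring each library, 130 and 79 with quantile-normalized libraries, and 192 and 58 relative to the median fold change. They were 134 and 3 at a mean score over 100 (574 members), 180 and 0 at a fold change over 2, and 303 and 2 at distances up to 3000 bp (757 members). Members of at least 2000 bp, an alternative chosen after seeing the data, gave 277 higher among 995. Where each peak kept its own variance, 383 members were called higher and 1 lower. With no fold minimum the counts were 801 and 24. Leaving out each library in turn gave 479 to 639 higher and 2 to 11 lower, and without Ctrl replicate 2 there were 2 lower. Several of these settings remove members or raise a threshold, and otherwise the cause was not tested. Shares over all tested peaks are given above only for the deposited, same-total, centred and quantile-normalized scales. The other counts do not show how the members compare with all tested peaks. At a mean score over 100 the median log2 fold change was 0.35 over members and 0.15 over all tested peaks. Relative to the median fold change these medians were 0.12 and 0.

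The library-level comparisons kept their direction in every alternative run. Leaving out each library gave 1.39 to 1.48 for the ratio of median scores, 0.16 to 0.21 against other gene-body peaks, -0.21 to -0.18 against TSS peaks and 0.23 to 0.29 within genes.

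Replicate numbers did not pair the libraries, since same-numbered libraries correlated at -0.0094, 0.0108 and -0.0272 in their deviations. With the replicate block 570 members were higher and 5 lower, and no call of a named member changed.

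Of 44 named members, 16 calls were lost and 3 gained after centring. The log2 fold change then turned to -0.15 in Kmt5c, -0.20 in Mtch1, 0.00 in Rnaseh2a and -0.20 in Rpl11. Atp2a1, at -0.01, was -0.17 without Ctrl replicate 1 and turned to 0.12 without Ctrl replicate 2 and to 0.00, 0.01 and 0.04 without Ctrl replicate 3, Kmt5b sKO replicate 1 and Kmt5b sKO replicate 2.

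Exact tests on 3 against 3 libraries cannot go below p = 0.1, and the reads behind each score are unknown.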
